A study of Mus musculus with 12 samples.

Results

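The vessels of the anterior pituitary carry signals from the hypothalamus to the hormone cells and take up the hormones that those cells release. Their endothelium is fenestrated, with pores closed by a diaphragm of the protein Plvap. Endothelial cells are recognised by junction proteins such as Cdh5 and Pecam1, by receptors for vascular endothelial growth factor (VEGF), angiopoietin and apelin, and by transcription factors of the ETS and SOX families. A list of 39 such endothelial genes, chosen by gene symbol from general knowledge, was followed through dexamethasone treatment and withdrawal. All 39 were among the 55304 genes in the expression table, and 38 of them were among the 24736 genes with enough signal to test. Tal1, a transcription factor of blood and endothelial precursors, had 3 reads in all 12 libraries together and was not tested.

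RNA was sequenced from eGFP-positive cells sorted from the anterior pituitary of male mice of the Pomc-eGFP line (POMC-GFP in the labels) on a C57Bl6/J background, 8 weeks old at the start, in which the Pomc promoter drives eGFP and so marks corticotrophs, the cells that make ACTH. Control mice (CTL in the labels) received no DEX. All mice of the other groups received dexamethasone (DEX, a synthetic glucocorticoid) at 2.5 µg/ml in the drinking water for 4 weeks, and cells were taken at the end of treatment (DEX), after 7 days of recovery (1 week off) or after 28 days of recovery (4 weeks off). Live single cells were gated against wild-type pituitaries. Each group had 3 libraries, each from a pool of 3 pituitaries by the labels (fewer in some pools by the study's methods), so that a value is the average of several mice and n = 3 counts pools.

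Values are normalised counts: CPM, reads scaled to the size of their library, after a further scaling factor from the trimmed mean of M-values. The 12 libraries held from 7719894 to 12848078 reads on genes, so that 1 read was worth from 0.0787 to 0.127 normalised counts. In the third pool of the 1 week off group, which stood apart from the other pools of its group, 33 of 38 genes had their highest value of that group (38.3% of all genes did), and corticotroph genes were low in it (the CRH receptor gene Crhr1 12.5 against 125 and 201 in pools 1 and 2). Medians, counts of called genes, correlations and the called genes at 1 week off are given with and without it. Growth hormone and prolactin transcripts were present at high level in every sorted pool (Gh from 67563 to 265851), beside Pomc, the ACTH precursor gene (4241 to 284740).

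The endothelial genes were a small part of the RNA. Their 39 values summed to 126, 169 and 197 normalised counts in the control pools and to 71.7, 67.9 and 92.6 in the DEX pools. They summed to 158, 159 and 412 at 1 week off and to 344, 340 and 218 at 4 weeks off. In this sum every DEX pool was thus below every control pool, and every pool at 4 weeks off was above them, while pools 1 and 2 at 1 week off lay within the control range. The separation of DEX from control in this sum rested on Esm1, a gene with another course, described below. Without Esm1 the first control pool lay below the third DEX pool. A sum of 8 defining endothelial markers, given below, did not separate DEX from control. It was 8.97 in control pool 1 and 9.08 in DEX pool 2. In bulk RNA, fewer endothelial cells in a pool and less RNA of these genes per cell cannot be told apart.

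**Figure D1:**
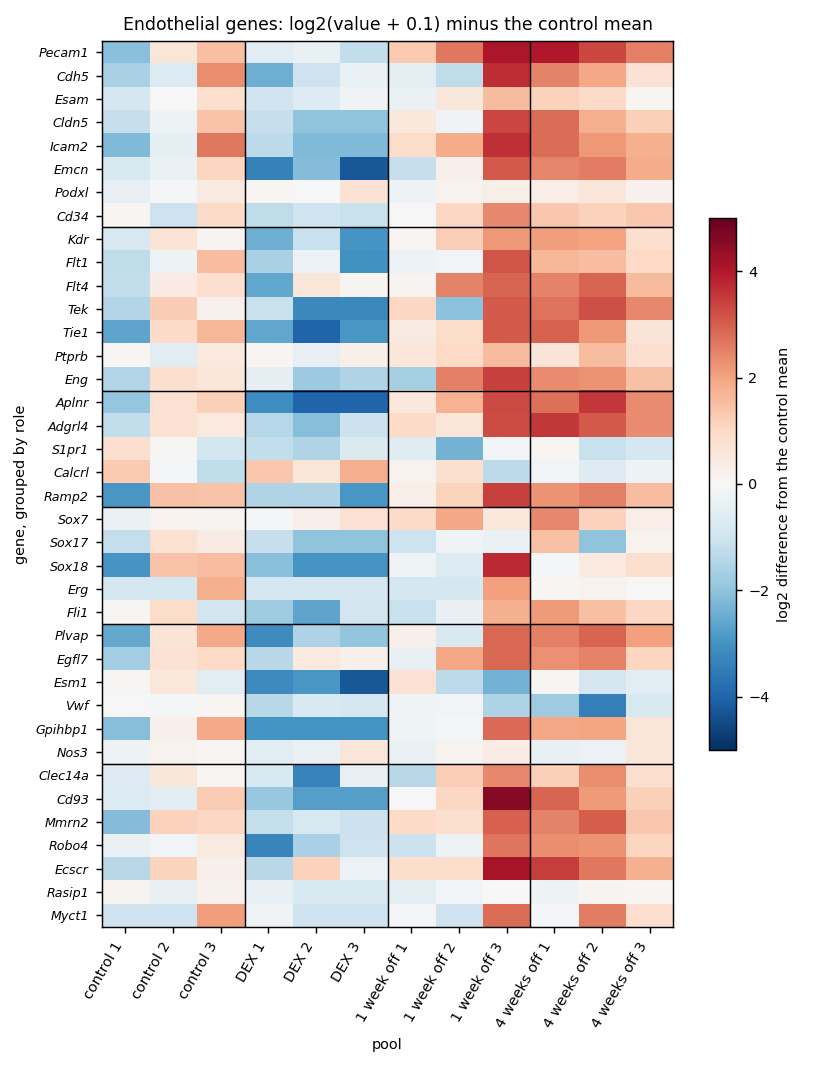
Each cell shows 1 gene in 1 pool as log2(normalised counts + 0.1) minus the mean of the 3 control pools (colour, from blue for lower to red for higher), with the 38 tested endothelial genes in rows grouped by role and the 12 pools in columns. The DEX columns are mostly blue, the 4 weeks off columns mostly red, and the third pool at 1 week off is the highest of all 12 pools for 22 genes (16.8% of all genes tested).

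Median differences over the 38 tested genes gave the same order of groups, though not the same separation of pools. Against control the median log2 fold change was -1.39 in DEX (35 genes lower, 3 higher), 0.87 at 1 week off and 1.59 at 4 weeks off, where the median of all 24736 genes lay at -0.02, 0.00 and 0.00. Against DEX it was 2.45 at 1 week off and 3.04 at 4 weeks off, with 36 genes higher and 2 lower in both. The comparisons with DEX and those with control share pools and are not independent. Without the third pool at 1 week off, the median of 1 week off against control was 0.13 and against DEX 1.61. Pools of 1 group differed: the median distance of the endothelial genes from the control mean was -1.10, 0.21 and 0.83 in the control pools themselves, -1.35, -1.30 and -1.09 in DEX, -0.05, 0.42 and 2.86 at 1 week off, and 2.18, 1.98 and 0.92 at 4 weeks off. By this median the first control pool lay within the range of the DEX pools.

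Over the 4 groups, 5 of the 38 genes passed the F test of limma at an adjusted p under 0.05, against 0.315% of all genes tested (24 at an unadjusted p under 0.05, against 9.21%), and 9 passed without the third pool at 1 week off, against 0.777%. With the pool number as a block, 3 passed, against 0.344% of all genes. The 5 that passed with all libraries and no block were Aplnr (adjusted p = 0.00651), Kdr (0.0263), Adgrl4 (0.0353), Emcn (0.0422) and Esm1 (0.0454). Between 4 weeks off and DEX, 12 of 38 were higher and none lower, against 0.412% of all genes that were higher, 0.461% that were lower and 0.873% that differed in either direction. The 12 were Pecam1, Emcn, Kdr, Tek, Tie1, Aplnr, Adgrl4, Plvap, Esm1, Gpihbp1, Cd93 and Robo4. At 1 week off, 2 genes were higher than in DEX, Kdr and Aplnr, and none lower, against 0.105% of all genes higher and 0.327% lower. In DEX, Esm1 alone was lower than in control at this threshold, against 0.0121% of all genes lower, while 14 genes, all lower, had an unadjusted p under 0.05, against 3.2% of all genes lower. These counts depend on the test: for 4 weeks off against DEX, 11 genes were called by the quasi-likelihood test of edgeR on the recovered reads, 27 by its likelihood ratio test, 19 by DESeq2 and 6 with no scaling factor, where the same settings called 0.865%, 2.72%, 2.68% and 0.932% of all genes. They also rest on single pools. For 4 weeks off against DEX, 1 gene was called without 4 weeks off pool 1 or pool 2 or DEX pool 1, 2 without DEX pool 3, 4 without 4 weeks off pool 3, 5 without DEX pool 2, and 18 without the third pool at 1 week off, and the share of all genes called moved with them, from 0.0776% without DEX pool 1 to 1.68% without the third pool at 1 week off. For 1 week off against DEX, 0 were called without DEX pool 3, 1 without DEX pool 1, 4 without control pool 1 or pool 3, 7 without 1 week off pool 1 and 3 without 1 week off pool 3. The share of all genes called moved here too, from 0.0287% without DEX pool 3 to 0.821% without 1 week off pool 1. For DEX against control, 2 were called without the third pool at 1 week off, 1 without control pool 1, DEX pool 2 or the first or second pool at 1 week off, and 0 without any 1 of the 7 other libraries. There the share of all genes called ran from 0.00819% without DEX pool 3 to 0.276% without the third pool at 1 week off.

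The start sites of the genes that differed over the 4 groups are shown because these genes passed the test over all groups. A promoter window, from 250 bases before to 50 after the start, was found for 19 of the 39 genes and for 4 of these 5 in RefSeq (build GRCm38.p6), and Aplnr was not among them. Capitals mark matches to the ETS motif searched, GGAAG or CCGGAA on either strand.

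Emcn (chr3:137340828-137341127, plus strand): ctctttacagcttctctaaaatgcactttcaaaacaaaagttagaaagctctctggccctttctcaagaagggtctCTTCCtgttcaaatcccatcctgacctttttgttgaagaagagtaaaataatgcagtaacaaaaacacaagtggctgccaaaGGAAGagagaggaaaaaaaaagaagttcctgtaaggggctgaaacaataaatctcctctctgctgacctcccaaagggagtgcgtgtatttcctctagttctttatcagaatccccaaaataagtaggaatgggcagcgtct
Kdr (chr5:75978406-75978705, minus strand): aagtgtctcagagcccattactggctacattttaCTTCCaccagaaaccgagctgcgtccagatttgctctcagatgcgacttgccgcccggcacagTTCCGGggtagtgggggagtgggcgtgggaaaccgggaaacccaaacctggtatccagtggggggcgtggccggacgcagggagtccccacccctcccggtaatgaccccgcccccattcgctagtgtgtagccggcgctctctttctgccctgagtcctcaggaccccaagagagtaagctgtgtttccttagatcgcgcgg
Adgrl4 (chr3:151437632-151437931, plus strand): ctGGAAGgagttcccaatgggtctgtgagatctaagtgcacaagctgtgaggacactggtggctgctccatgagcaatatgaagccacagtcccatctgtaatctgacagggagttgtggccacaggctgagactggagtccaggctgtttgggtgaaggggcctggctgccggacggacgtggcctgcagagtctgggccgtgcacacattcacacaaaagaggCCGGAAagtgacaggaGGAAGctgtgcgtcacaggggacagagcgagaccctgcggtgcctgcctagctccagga
Esm1 (chr13:113209409-113209708, plus strand): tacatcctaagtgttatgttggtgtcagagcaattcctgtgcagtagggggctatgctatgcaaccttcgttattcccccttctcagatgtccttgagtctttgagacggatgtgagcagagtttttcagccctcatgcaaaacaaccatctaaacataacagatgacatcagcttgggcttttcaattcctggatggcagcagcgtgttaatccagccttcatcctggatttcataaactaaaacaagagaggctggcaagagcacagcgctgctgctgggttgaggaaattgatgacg

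The windows of Emcn and Kdr held 2 ETS matches each, that of Adgrl4 held 3 and that of Esm1 none. Among the 19 genes with a window, 14 held an ETS match in the first window, where 73.2% of all 32851 promoter windows of the same length held one, so the endothelial genes were near the background. The SOX motif (ACAAAG or AACAAT) was found in 4 of the 19 first windows against 27.0% of all windows. The GATA motif (AGATAA) was found in 3 against 11.2%, the E-box (CANNTG) in 14 against 72.3% and the glucocorticoid receptor hexamer (AGAACA) in 3 against 19.0%. The full inverted repeat of that hexamer was in none of the 19, and in 0.00913% of all windows. A match is a stretch of letters and not a bound site.

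The junction and surface proteins of the vessel wall gave 2 of the 12 genes that differed between 4 weeks off and DEX. Pecam1, an adhesion molecule at endothelial junctions (chr11:106654217-106750628 in GRCm38, as for all genes here), had 0.0787, 1.06 and 2.07 normalised counts in the control pools and 0.414, 0.491 and 0.224 in the DEX pools. It had 1.81, 4.72 and 12.5 at 1 week off and 12.2, 7.66 and 4.24 at 4 weeks off. All 3 pools at 4 weeks off were above every DEX and every control pool, while DEX and control overlapped. The log2 fold change was 4.01 ± 0.85 (SE) for 4 weeks off against DEX (adjusted p = 0.0393) and 3.28 ± 0.85 (SE) against control (adjusted p = 0.5).

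Emcn, the luminal sialomucin of veins and capillaries (chr3:137341067-137432185), had 1.02, 1.41 and 3.91 normalised counts in control and 0.0828, 0.327 and 0 in DEX. It had 0.760, 2.17 and 15.8 at 1 week off and 10.2, 11.2 and 6.77 at 4 weeks off. The DEX pools, with 5 reads in all, lay below every pool of the other groups. Its log2 fold change was -3.26 ± 0.88 (SE) for DEX against control (adjusted p = 0.273) and 5.54 ± 0.88 (SE) for 4 weeks off against DEX (adjusted p = 0.00902).

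Esam, a tight junction adhesion molecule, and Cd34, a sialomucin of vessels and stem cells, were among the genes with more reads, but were not called in any comparison. Esam had 3.62, 6.71 and 12 in control, 3.31, 4.17 and 5.94 in DEX, 5.32, 9.94 and 19.9 at 1 week off and 14.8, 12.8 and 7.13 at 4 weeks off, a log2 fold change of 1.33 ± 0.51 (SE) between 4 weeks off and DEX (adjusted p = 0.339). Cd34 had 2.67, 1.18 and 5.0 in control, 0.994, 1.23 and 1.12 in DEX, 2.47, 5.23 and 13.9 at 1 week off and 6.65, 5.69 and 6.5 at 4 weeks off. The Cd34 pools of both recovery groups were all above the DEX pools, by 2.4 ± 0.60 (SE) at 4 weeks off (adjusted p = 0.0784).

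The defining junction genes themselves had few reads in DEX, and also in control pools 1 and 2. Cdh5, the cadherin of endothelial junctions, had 0, 0.164 and 0.336 in the DEX pools and 2.96, 1.97 and 0.812 at 4 weeks off (log2 fold change 2.99 ± 1.20 (SE), adjusted p = 0.376). Cldn5, the claudin of endothelial tight junctions, had 1 read in all 3 DEX pools against 50 at 4 weeks off, a ratio of 53.5 after allowing for depth, with a 95% interval from counting of 9.17 to 2155. Icam2, an endothelial adhesion molecule for leukocytes, had 1 read against 67, a ratio of 71.7 (12.4 to 2874). These intervals cover counting error only, and neither gene passed the adjusted test (Cldn5 adjusted p = 0.0781, Icam2 adjusted p = 0.0695). In the control pools Cdh5 had 1, 2 and 24 reads, Cldn5 1, 2 and 9 and Icam2 0, 2 and 25. DEX and control overlapped for each of these genes. At 1 week off Cdh5 had 3, 1 and 62 reads. Podxl, a sialomucin that podocytes also make, did not follow the others, with 7.0, 8.95 and 12.6 in control, 9.86, 9.08 and 15.3 in DEX, 7.7, 10.6 and 11.5 at 1 week off and 11.7, 14 and 10.8 at 4 weeks off. Its groups overlapped in every comparison.

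The receptors for VEGF, angiopoietin and transforming growth factor beta gave 3 of the 12. Kdr, the main signalling receptor for VEGF (chr5:75932827-75978458), had 3.3, 9.54 and 6.42 normalised counts in control and 0.994, 2.7 and 0.673 in DEX. At 1 week off it had 6.27, 14 and 26.8 and at 4 weeks off 25.6, 23.8 and 10.6. Each DEX pool was below each control pool, and each pool at 4 weeks off was above each control pool, while 1 week off overlapped control. Kdr was higher than in DEX at 1 week off, by 3.33 ± 0.59 (SE) (adjusted p = 0.0191), and at 4 weeks off, by 3.81 ± 0.59 (SE) (adjusted p = 0.00832), on the log2 scale. The lower value in DEX than in control (-2.17 ± 0.59 (SE)) did not pass the adjusted test (adjusted p = 0.281). Without the third pool at 1 week off, the difference of 1 week off from DEX was 2.83 (adjusted p = 0.0452).

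Tek, the angiopoietin receptor Tie2 (chr4:94739289-94874976), had 0.236, 2.12 and 0.979 in control and 0.331, 0 and 0 in DEX. It had 1.81, 0.127 and 7.67 at 1 week off and 6.01, 8.54 and 4.78 at 4 weeks off, above all control and DEX pools. Between 4 weeks off and DEX it differed by 5.29 ± 1.06 (SE) (adjusted p = 0.029). The 1 week off pools were uneven, with 1 read in pool 2 and 69 in pool 3.

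Tie1, the partner of Tek (chr4:118471191-118490061), had 0.157, 3.06 and 5.0 in control and 0.166, 0 and 0.112 in DEX. It had 2.09, 2.93 and 13.3 at 1 week off and 12.5, 7.12 and 2.44 at 4 weeks off. All DEX pools together held 3 reads against 227 at 4 weeks off, a ratio of 81.0 (95% counting interval 27.4 to 396). The fitted log2 fold change was 5.11 ± 1.00 (SE) (adjusted p = 0.0264).

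The other 4 receptors of this group had their DEX pools at or below 1.46 normalised counts and were not called. Flt1, a decoy receptor for VEGF, differed by 3.05 ± 0.97 (SE) between 4 weeks off and DEX (adjusted p = 0.195). Flt4, the VEGF-C receptor, differed by 2.96 ± 0.92 (SE) (adjusted p = 0.18) and Eng, the endoglin coreceptor, by 3.27 ± 1.03 (SE) (adjusted p = 0.189). Ptprb, the phosphatase that acts on Tek, ranged from 0.825 to 3.89 over the 12 pools, with a difference of 1.02 ± 0.52 (SE) (adjusted p = 0.558).

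**Figure D2:**
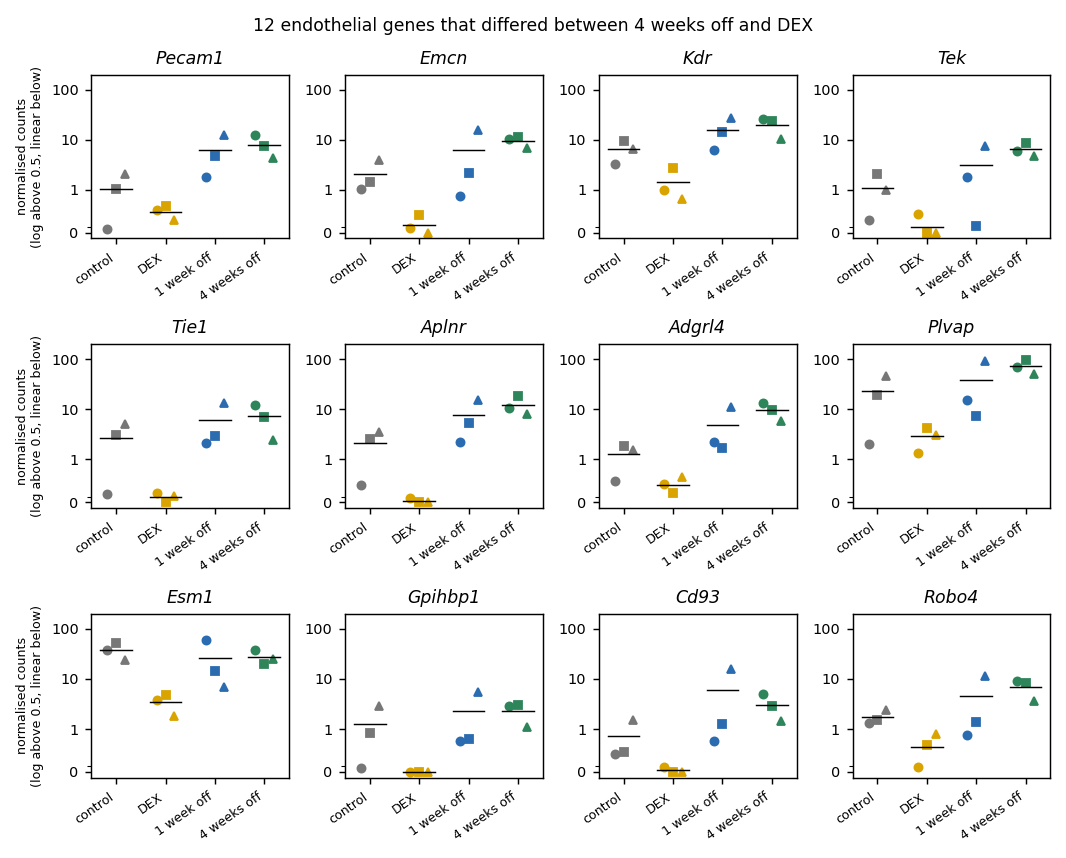
Normalised counts (vertical axis, log above 0.5 and linear below) in each pool for the 12 endothelial genes that differed between 4 weeks off and DEX, with pools 1, 2 and 3 of a group as circle, square and triangle and the mean of 3 as a bar. In each panel the 3 pools at 4 weeks off lie above the 3 DEX pools, and the third pool at 1 week off is the highest of its group in 11 panels, all but that of Esm1.

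Among the receptors coupled to G proteins, Aplnr and Adgrl4 were called. Aplnr, the receptor for apelin and apela (chr2:85136225-85139923), had 0.315, 2.59 and 3.48 normalised counts in control and 0.0828, 0 and 0 in DEX, where a single read was found in 3 pools. It had 2.19, 5.23 and 15.6 at 1 week off and 10.6, 18.1 and 8.03 at 4 weeks off. DEX lay below every other pool, and 4 weeks off lay above every control pool. In reads, 369 at 4 weeks off against 1 in DEX gave a ratio of 395 (95% counting interval 70.4 to 15640.2). The fitted log2 fold changes were 5.56 ± 0.81 (SE) at 1 week off against DEX (adjusted p = 0.00581) and 6.57 ± 0.81 (SE) at 4 weeks off against DEX (adjusted p = 0.0021). Without the third pool at 1 week off, the former was 4.83 (adjusted p = 0.0143). Aplnr was the only one of the 12 that stayed below an adjusted p of 0.05 for 4 weeks off against DEX in all 12 runs that left out 1 library. DEX against control gave -3.7 ± 0.81 (SE) (adjusted p = 0.103).

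Adgrl4, an adhesion receptor of angiogenic endothelium (chr3:151437887-151545086), had 0.393, 1.88 and 1.52 in control and 0.331, 0.164 and 0.449 in DEX. It had 2.19, 1.66 and 11 at 1 week off and 13.3, 9.74 and 5.87 at 4 weeks off, where every pool was above every control pool. It differed by 4.54 ± 0.72 (SE) between 4 weeks off and DEX (adjusted p = 0.00902).

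Calcrl and Ramp2 together form the receptor for adrenomedullin, and their transcripts ran differently. Calcrl had 20.8, 7.89 and 3.37 normalised counts in control, 21, 12.5 and 29.6 in DEX, 9.32, 14.4 and 3.22 at 1 week off and 7.39, 5.25 and 6.86 at 4 weeks off. All 3 pools at 4 weeks off were below all 3 DEX pools, a log2 fold change of -1.61 ± 0.60 (SE) (adjusted p = 0.316). Ramp2 had 0, 2.0 and 1.96, 0.166, 0.164 and 0, 0.855, 1.53 and 7.89 and 3.51, 4.27 and 2.08 in the same order of groups, higher in every recovery pool than in every DEX pool, by 4.09 ± 1.05 (SE) at 4 weeks off (adjusted p = 0.0885). Neither passed the adjusted test. S1pr1, the receptor for sphingosine 1-phosphate, was highest in control pool 1 (9.13) and lowest in 1 week off pool 2 (0.892), and its groups overlapped in every comparison.

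None of the 5 transcription factors tested was called. Sox7 had 2.05, 2.94 and 2.83 normalised counts in control, 2.48, 3.11 and 4.37 in DEX, 5.13, 10.2 and 3.78 at 1 week off and 14.1, 5.91 and 3.25 at 4 weeks off, and its DEX and control pools overlapped. Sox18 had 0, 2.0 and 2.17 in control, 0.0828, 0 and 0 in DEX, 0.570, 0.382 and 10.3 at 1 week off and 0.647, 0.985 and 1.26 at 4 weeks off. Its 1 week off value was set by pool 3, with 93 of 102 reads. Fli1, an ETS factor, had 0.551, 1.06 and 0.217, 0.0828, 0 and 0.224, 0.190, 0.382 and 2.0 and 2.59, 1.64 and 1.17 in the same order. Its 4 weeks off pools were above all others but 1 week off pool 3, and the difference from DEX was 3.32 ± 0.80 (SE) (adjusted p = 0.0689). Sox17, a factor of arterial endothelium, was at or below 1.02 in all pools, with 0.0787, 0.589 and 0.435, 0.0828, 0 and 0, 0.0951, 0.255 and 0.222 and 1.02, 0 and 0.361. Erg, the other ETS factor listed, had 14 reads in all, none of them in DEX.

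The secreted, luminal and fenestral proteins held the most abundant endothelial transcripts. Per kilobase of exon, Esm1 had the highest mean level of the 39 in control (17.9 normalised counts per kb), followed by Plvap (11.5) and Rasip1 (7.08). At 4 weeks off the order was Plvap (36.4), Esm1 (13.0) and Rasip1 (7.00). In control the Plvap pools overlapped those of both neighbours, so that this order did not exceed the spread between pools, whereas at 4 weeks off the pools of the 3 genes did not overlap per kb.

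Plvap, the diaphragm protein of fenestrated capillaries (chr8:71497765-71511752), had 2.05, 19.7 and 46.9 normalised counts in control and 1.33, 4.17 and 3.14 in DEX. It had 15, 7.39 and 92.7 at 1 week off and 71.1, 94.7 and 51.3 at 4 weeks off. The 4 weeks off pools were above all control and DEX pools, whereas DEX overlapped control, where pool 1 was as low as the DEX pools. The log2 fold change of 4 weeks off against DEX was 4.7 ± 0.94 (SE) (adjusted p = 0.029).

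Esm1, a proteoglycan that sprouting endothelial tip cells secrete (chr13:113209659-113218098), took another course. It had 36.8, 51.4 and 24.1 normalised counts in control and 3.81, 4.66 and 1.79 in DEX. It had 58.6, 14.5 and 6.78 at 1 week off and 37, 20.1 and 25 at 4 weeks off. The DEX pools were below all 9 others, but 4 weeks off did not exceed control, and the third pool at 1 week off, the highest for most endothelial genes, was the lowest of its group. Relative to control, Esm1 in DEX fell by 3.45 ± 0.59 (SE) on the log2 scale (adjusted p = 0.0302), and it was higher at 4 weeks off than in DEX by 3.02 ± 0.59 (SE) (adjusted p = 0.0264). The fall in DEX missed the threshold with no scaling factor and held in 4 of the 12 runs that left out 1 library, over which the adjusted p reached 0.306.

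Gpihbp1, which carries lipoprotein lipase to the capillary lumen (chr15:75596628-75599481), had 0.0787, 0.825 and 2.83 in control and no read in any DEX pool. It had 0.570, 0.637 and 5.56 at 1 week off and 2.86, 2.96 and 1.08 at 4 weeks off. With a floor of 3 reads in each DEX library, its group mean was at least 4.49-fold higher in control than in DEX. At 4 weeks off the mean was at least 8.31-fold higher than in DEX. These bounds do not hold for each pool: control pool 1, with 1 read (0.0787), lay below the mean DEX floor of 0.277. The adjusted p for 4 weeks off against DEX was 0.0459. This call of Gpihbp1 held in 5 of 10 other settings, over which the adjusted p reached 0.201.

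Vwf, the von Willebrand factor of large vessels and veins, was lowest on average at 4 weeks off, where most of the list was high. Its pools had 2.12, 2.0 and 2.28 in control, 0.745, 1.23 and 1.12 in DEX, 1.9, 1.91 and 0.667 at 1 week off and 0.554, 0.109 and 1.17 at 4 weeks off. Every pool of the 3 treated groups was below every control pool, and 4 weeks off against control was -2.0 ± 0.68 (SE) (adjusted p = 0.652). Nos3, the endothelial nitric oxide synthase, had 3.7, 5.07 and 4.78 in control, 3.06, 3.52 and 6.84 in DEX, 3.52, 5.1 and 5.89 at 1 week off and 3.42, 3.61 and 6.95 at 4 weeks off, with overlap in every comparison. Egfl7, a protein of the vessel matrix, ranged from 0.236 in control pool 1 to 8.12 in 1 week off pool 3.

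**Figure D3:**
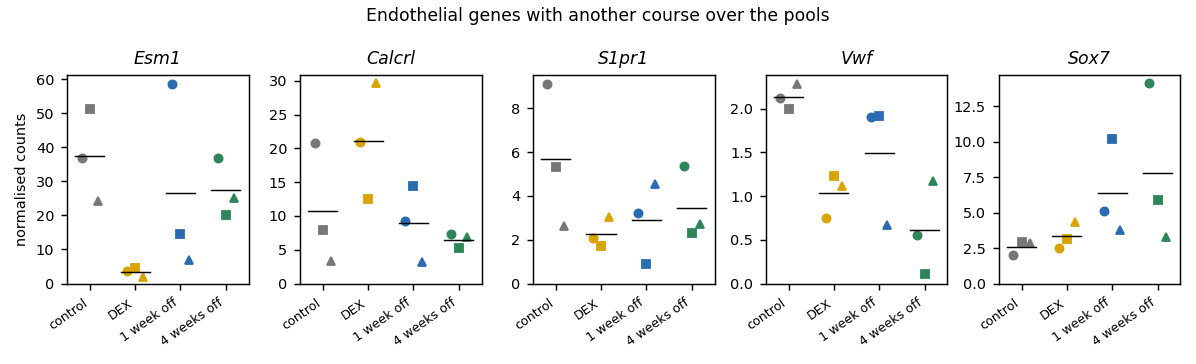
Normalised counts (vertical axis, linear, a separate scale in each panel) in each pool for 5 endothelial genes whose pools did not follow the rest of the list, with pools 1, 2 and 3 of a group as circle, square and triangle and the mean of 3 as a bar. The mean of Calcrl is highest in DEX, that of Vwf is highest in control, and for Esm1 control and 4 weeks off overlap.

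The last group joins the C-type lectin family with its partners and guidance genes. Cd93, a lectin-like receptor of migrating endothelium (chr2:148436640-148443563), had 0.315, 0.353 and 1.52 normalised counts in control and 0.0828, 0 and 0 in DEX. It had 0.570, 1.27 and 15.8 at 1 week off and 4.9, 2.85 and 1.44 at 4 weeks off. The third pool at 1 week off held 142 of the 158 reads of its group. At 4 weeks off against DEX, 95 reads against 1 gave a ratio of 102 (95% counting interval 17.8 to 4058), with a fitted log2 fold change of 4.53 ± 0.98 (SE) (adjusted p = 0.0427). This call of Cd93 held in 6 of 10 other settings, over which the adjusted p reached 0.27.

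Robo4, a receptor that keeps vessels stable (chr9:37401897-37415115), had 1.34, 1.53 and 2.39 in control and 0.0828, 0.491 and 0.785 in DEX. It had 0.760, 1.4 and 11.6 at 1 week off and 8.96, 8.43 and 3.7 at 4 weeks off. The DEX pools were below every control pool, and 4 weeks off was above every control pool. The difference between 4 weeks off and DEX was 3.86 ± 0.84 (SE) (adjusted p = 0.0451) and held in 3 of the 12 runs that left out 1 library, the fewest of the 12 genes.

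Mmrn2, a protein of the vessel matrix, and Clec14a, a receptor that binds it, were not called. Mmrn2 differed by 3.31 ± 0.83 (SE) between 4 weeks off and DEX (adjusted p = 0.082) and Clec14a by 2.96 ± 0.94 (SE) (adjusted p = 0.192). Ecscr, a regulator of endothelial migration, differed by 2.8 ± 0.97 (SE) (adjusted p = 0.256) and Myct1, with 35 reads in all, by 1.85 ± 1.03 (SE) (adjusted p = 0.626). Rasip1, a Ras-interacting protein of the vessel lumen, had 24.8, 17.2 and 26 in control, 16.6, 13 and 12.9 in DEX, 16.3, 20.1 and 22.7 at 1 week off and 18.8, 24.8 and 23.6 at 4 weeks off. Its DEX pools were below every control pool by a small margin (-0.66 ± 0.27 (SE), adjusted p = 0.651).

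**Figure D4:**
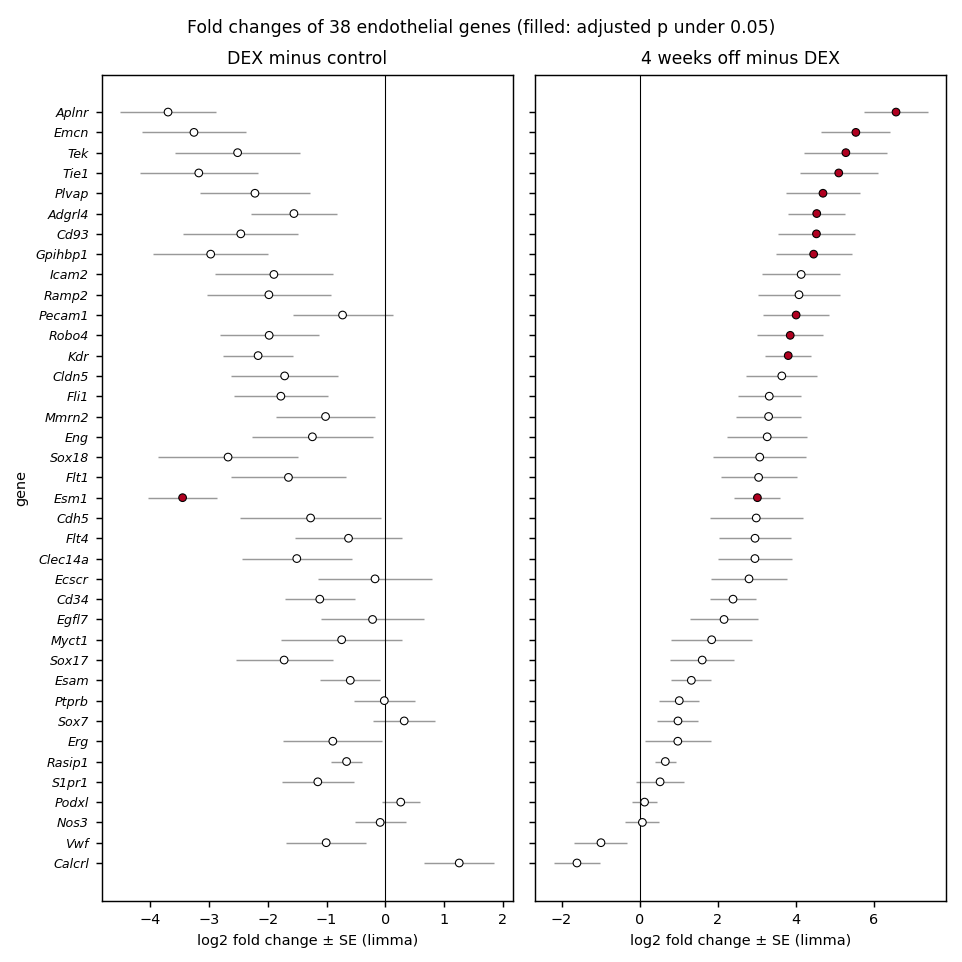
Log2 fold change with its standard error (horizontal axis) of the 38 tested endothelial genes for DEX minus control (left) and 4 weeks off minus DEX (right), with filled points at an adjusted p under 0.05 (limma, 12 libraries). Esm1 is the filled point on the left, and 12 genes are filled on the right, all above 0.

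Groups whose pools did not overlap were also counted. DEX was below control in 9 of 38 genes with no overlap, against 6.23% of all genes, and above control in none, against 6.61%. The 9 were Emcn, Kdr, Aplnr, Esm1, Vwf, Gpihbp1, Cd93, Robo4 and Rasip1. At 4 weeks off, 31 of 38 were above DEX with no overlap, against 9.8% of all genes, and Calcrl alone was below, against 9.67%. At 1 week off, 18 of 38 were above DEX with no overlap, against 6.97% of all genes, and none below, against 6.87%.

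Withdrawal was also compared with control. At 1 week off none of the 38 passed the adjusted test, as none of all genes tested did (0%), and 4 had an unadjusted p under 0.05, all higher, against 1.81% of all genes. Ptprb and Sox7 were above all control pools with no overlap, against 3.47% of all genes, and Vwf was below, against 2.61%. The likelihood ratio test of edgeR called 2 (0.202% of all genes), and its quasi-likelihood test and DESeq2 called 0. At 4 weeks off the count was again 0 of 38 (0% of all genes), with 15 genes higher and 1 lower at an unadjusted p under 0.05, against 3.43% and 2.92% of all genes. The quasi-likelihood test called 0 (0% of all genes), DESeq2 1 (0.239%), the likelihood ratio test 6 (0.38%) and limma with array weights 3 (0.752%). In 19 of the 38 genes all pools at 4 weeks off were above all control pools, against 6.77% of all genes, and in 1, Vwf, they were all below, against 6.42%. With control pool 1 at a median of -1.10 and 4 weeks off pool 3 at 0.92, the closest pools of the 2 groups were control pool 3 (0.83) and 4 weeks off pool 3. Between 4 weeks and 1 week off none of the 38 was called by limma or the quasi-likelihood test (0% of all genes in both). None was called by the likelihood ratio test (0.655% of all genes) or DESeq2 (0.0606%) either. By limma none of the 38 had an unadjusted p under 0.05, against 5.47% of all genes.

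The genes varied together across the 12 pools to different degrees. Against the mean profile of the 32 endothelial genes with a mean of at least 1 normalised count, Gpihbp1 (Pearson r = 0.97), Aplnr (0.97), Tie1 (0.96) and Cd93 (0.96) were closest, and Calcrl (-0.82) and Vwf (-0.38) were farthest. S1pr1 (0.10), Nos3 (0.28), Podxl (0.39), Esm1 (0.42) and Sox7 (0.50) lay between. Of 15757 genes outside the list with the same mean, the 10 most like this profile were Pear1 (r = 0.96), Col4a2, Pltp, H2-Q7, Bgn, Rcsd1, Col4a1, Itm2a, Ccdc80 and Gimap6 (0.94). Col4a1 and Col4a2 encode a collagen of basement membranes, those of vessels among others. Col4a2 had 2.36, 3.06 and 4.78 normalised counts in control and 1.91, 1.96 and 1.68 in DEX. It had 3.33, 5.74 and 21.1 at 1 week off and 12.4, 13.6 and 10.9 at 4 weeks off, the same order of groups as Kdr. Without the third pool at 1 week off, r over the other 11 pools was 0.97 for Gpihbp1 and Aplnr, 0.96 for Tie1 and Cd93, -0.78 for Calcrl and -0.34 for Vwf, while Esm1 moved to 0.61 and Sox7 to 0.60, and 5 of the 10 genes outside the list stayed among the 10 most alike (Pear1, Col4a2, Pltp, Bgn and Ccdc80). These correlations describe pools that share groups and depth.

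Ligands of these receptors and Notch partners, a list of 21 genes, were read in the same fit. By limma 0 of the 20 tested were called in each of the 7 comparisons, while 6 had an unadjusted p under 0.05 for 4 weeks off against DEX (9.94% of all genes) and 3 for DEX against control (6.8%), and the median log2 fold change of 4 weeks off against DEX was 0.70. The 3 with the highest mean were Angpt1, the Tek ligand (41.4 to 142 over the 12 pools), Slit2, a guidance ligand (13.5 to 32.5), and Hey1, a Notch target (10.5 to 32.3). Of 25 other arterial, venous and capillary genes, 1 was called, at 4 weeks off against DEX, where 0.873% of all genes were called. It was Tspan18, a tetraspanin, with 3.81, 4.74 and 2.58 normalised counts in DEX and 19.5, 14.4 and 11.4 at 4 weeks off (log2 fold change 2.0 ± 0.37, adjusted p = 0.0217). The 3 with the highest mean, Rgcc, Tm4sf1 and Heg1, were not called. These 25 genes summed to 145, 154 and 186 in control and 167, 129 and 73.4 in DEX. They summed to 158, 122 and 203 at 1 week off and 266, 170 and 162 at 4 weeks off, so all groups overlapped. Their median log2 fold change was -0.27 for DEX against control, 0.34 for 4 weeks off against control and 0.90 for 4 weeks off against DEX. In the last, 10 had an unadjusted p under 0.05 (9.94% of all genes). Of 5 lymphatic genes, Prox1, the lineage factor of lymphatic endothelium, had 35.7 to 101 in all pools, Pdpn and Reln stayed at or below 4.97, and none was called, with 1 of 4 tested at an unadjusted p under 0.05 over the 4 groups (9.21% of all genes).

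Markers of other cell types moved in part with the endothelial genes. The sum of 8 defining endothelial markers (Pecam1, Cdh5, Kdr, Tek, Emcn, Plvap, Cldn5 and Vwf) was 8.97 to 66.1 in control, 3.98 to 9.08 in DEX, 28.3 to 167 at 1 week off and 80.5 to 149 at 4 weeks off. In DEX, 7, 6 and 5 of the 8 were above 0 in pools 1, 2 and 3, and all 8 were in every other pool. Over 10 pericyte and smooth muscle genes the sum was 6.83 to 17.5 in control, 6.46 to 7.36 in DEX, 8.55 to 19.0 at 1 week off and 15.4 to 23.6 at 4 weeks off. The 3 with the highest mean were Kcnj8 (1.31 to 8.12 over the 12 pools), a potassium channel subunit, Notch3 (0.951 to 5.44), a Notch receptor of mural cells, and Pdgfrb (0 to 8.98). Pdgfrb, the pericyte receptor for PDGF, was the one of 9 tested that was called, against 0.873% of all genes. It was higher at 4 weeks off than in DEX by 4.43 ± 0.79 (SE, adjusted p = 0.0194).

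Over 8 fibroblast genes the sum was 97.2 to 157 in control, 77.8 to 119 in DEX, 88.4 to 229 at 1 week off and 180 to 293 at 4 weeks off, with the matrix genes Col3a1 and Mfap4 called at 4 weeks off against DEX. Col3a1 was also called at 1 week off against DEX and over the 4 groups. Of all genes, 0.873% were called at 4 weeks off against DEX, 0.433% at 1 week off against DEX and 0.315% over the 4 groups. The 10 macrophage genes summed to 24.1 to 35.7 in control, 16.3 to 24.4 in DEX, 41.7 to 74.9 at 1 week off and 26.0 to 70.9 at 4 weeks off, with none called and 7 of 10 at an unadjusted p under 0.05 at 1 week off against DEX (10.8% of all genes). Of 6 general leukocyte genes Lcp1 was called at 4 weeks off against DEX. In the third pool at 1 week off the defining endothelial markers summed to 167 against 28.3 and 30.7 in the other pools of the group, and the macrophage genes to 45.2 against 41.7 and 74.9. The erythroid genes, a sign of blood, summed to 1.11 in that pool against 3.90 and 10.6. They were highest in 4 weeks off pool 2 (49.6) and between 1.06 and 1.23 in DEX. The part of these cell types in the results was not tested.

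**Figure D5:**
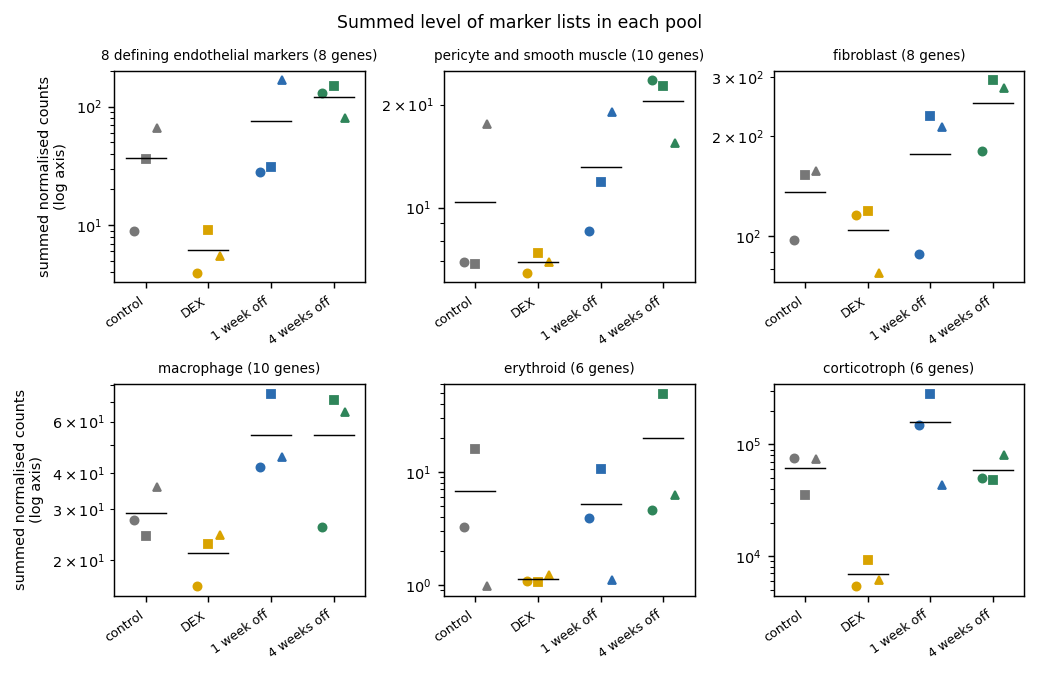
Summed normalised counts (vertical axis, log) in each pool for the defining endothelial markers, 4 lists for other cell types that moved in part with them, and the corticotroph list, with pools 1, 2 and 3 of a group as circle, square and triangle and the mean of 3 as a bar. The DEX mean is the lowest of the 4 in all 6 panels, and the third pool at 1 week off is the highest of its group in the endothelial and pericyte panels. The corticotroph sum is dominated by Pomc, whereas the median log2 fold change of its 6 genes in DEX against control was 0.75.

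The corticotroph genes did not move as 1 group. Their list of 6, dominated by Pomc, summed to 34971 to 75081 in control, 5413 to 9238 in DEX, 43679 to 285412 at 1 week off and 48364 to 80569 at 4 weeks off. Tbx19, the corticotroph lineage factor, was highest in DEX (769, 498 and 1490.0) and lower at 4 weeks off (166, 94.4 and 188). In the third pool at 1 week off it had 39.5 against 282 and 385, while that pool had the most endothelial RNA of the group. Cell cycle genes differed from the endothelial genes in their timing: 5 of 10 were called at 1 week off against DEX (0.433% of all genes) and 0 at 4 weeks off against DEX (0.873%). Their sum was highest in 1 week off pool 1 (94.5). For the other lists, 1 of 9 genes of other hormone cells was called, against 0.873% of all genes (Tshb, higher at 4 weeks off than in DEX by 2.59 ± 0.52, adjusted p = 0.029). None of 6 stem and folliculostellate, 2 platelet, 5 erythroid, 6 corticotroph or 10 dissociation stress genes tested was called. Over the 4 groups 3, 0, 2, 4 and 1 of these had an unadjusted p under 0.05, against 9.21% of all genes. The stem and folliculostellate genes summed to 135 to 314 in control, 316 to 336 in DEX, 172 to 285 at 1 week off and 396 to 490 at 4 weeks off, where every pool was above the 9 others. The dissociation stress genes summed to 15553 to 19525 in control, 15118 to 22358 in DEX, 11696 to 16547 at 1 week off and 12723 to 13737 at 4 weeks off, where every pool was below every control and DEX pool. The part of either list in the results at 4 weeks off was not tested.

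The exons of 8 listed genes share bases with another gene, so their values are less certain: Cd34, Ecscr, Egfl7, Eng, Nos3, Ramp2, Rasip1 and Sox17. The longest stretches were those of Ramp2 with Vps25 (1103 bases, same strand) and of Nos3 with an antisense gene (1040 bases). None of the 12 genes called at 4 weeks off against DEX was among them.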

How the data were processed

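Each library was a pool of sorted eGFP-positive cells. The authors made cDNA with the SMART-V4 kit and libraries with Nextera XT, trimmed reads with Trim Galore 0.6.5, aligned them to GRCm38 with STAR 2.7.1a, counted reads per gene with featureCounts 2.0.0 set to reverse strand, and scaled them in edgeR. SMART-V4 is not known to mark strand, so reads of genes that overlap on opposite strands may not have been separated. The deposited signal values are CPM after the trimmed mean of M-values scaling, and whole reads were recovered for 100% of the 271881 values above 0 (largest distance from a whole number 6.29e-09).

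The 4 groups of 3 pools came from the labels. Genes over 0.1 in at least 3 of 12 libraries were tested with limma 3.58.1 (trend, all groups in 1 model) on log2(value + 0.1), which understates the change of low genes, with Benjamini-Hochberg adjustment over 24736 genes, an F test over the 3 contrasts with control and 6 pairwise contrasts. The steps were tested on simulated data. Alternatives were a pseudocount of 1, no filter, a filter at 1, median-ratio scaling, no scaling factor (added after the data were seen), array weights, edgeR 4.0.16 and DESeq2 1.42.0 on recovered reads, a replicate block, and each library left out. Correlations without the third pool at 1 week off were also added after the data were seen. Ratios of few reads have exact 95% counting intervals; these and floors of 3 reads cover counting error only. The labels name pools but not separate experiments, so p-values measure the spread between pools.

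All 39 listed genes were named, with each pool's values for the 15 with the highest mean, the 4 most abundant transcription factors and each called gene. Of the other lists, called genes and the 3 with the highest mean were named, and the 10 genes most like the listed ones. For corticotroph, macrophage, fibroblast, leukocyte, erythroid, stem cell, platelet, hormone cell, cell cycle and dissociation stress lists only part of these are printed. The listed genes and lists were chosen with earlier results of these data known, so their choice supports nothing. Exon lengths are from GENCODE M21, promoters from RefSeq.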

Additional observations from a re-analysis of the deposited data

How the results depend on the processing

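The number of endothelial genes called depended on the test. Over the 4 groups (5 called) it was 2 with a pseudocount of 1, 2 with no filter, 3 with a filter at 1, 1 with no scaling factor, 17 with array weights, 27 with the edgeR likelihood ratio test, 17 with DESeq2, and from 0 to 9 with 1 library left out. The share of all genes called moved too, from 0.315% to 4.32% with array weights, 4.23% with the likelihood ratio test and 2.97% with DESeq2, and from 0.0287% without DEX pool 3 to 0.777% without the third pool at 1 week off. It was 0.372% with a pseudocount of 1, 0.209% with no filter, 0.409% with a filter at 1 and 0.519% with no scaling factor. In all of these but no filter, the share of all genes rose while the endothelial count fell. For DEX against control (1 called) it was 0 with no scaling factor, 2 with array weights, 12 with the likelihood ratio test, 5 with DESeq2, and 0 to 2 with 1 library left out. The first 4 of these settings called 0.2%, 0.671%, 1.09% and 0.825% of all genes, against 0.121% with the main settings. Runs with 1 library left out called 0.00819% to 0.276%. For 1 week off against control (0 called) the likelihood ratio test gave 2 (0.202% of all genes), and 0 were called in all runs with 1 library left out. For 4 weeks off against control (0 called) array weights gave 3 (0.752% of all genes), the likelihood ratio test 6 (0.38%) and DESeq2 1 (0.239%), with 0 in all runs with 1 library left out. For 1 week off against DEX (2 called) array weights gave 9, the edgeR quasi-likelihood test 8, the likelihood ratio test 25, DESeq2 18, and runs with 1 library left out 0 to 7. The first 4 of these settings called 2.29%, 0.586%, 2.88% and 2.32% of all genes, against 0.433% with the main settings. Runs with 1 library left out called 0.0287% to 0.821%. For 4 weeks off against DEX (12 called) the count was 6 with no scaling factor, 25 with array weights, 27 with the likelihood ratio test, 19 with DESeq2, and 1 to 18 with 1 library left out. The first 4 of these settings called 0.932%, 5.26%, 2.72% and 2.68% of all genes, against 0.873% with the main settings. The count was 8 with a pseudocount of 1 and 8 with no filter, where 0.889% and 0.475% of all genes were called. Runs with 1 library left out called 0.0776% to 1.68%. Over the 4 groups, the lowest count was without DEX pool 3 (0) and the highest without the third pool at 1 week off (9). The count was 1 without DEX pool 1 or 4 weeks off pool 1 or 2, 2 without DEX pool 2, control pool 2 or 4 weeks off pool 3, 8 without 1 week off pool 1 and 7 without control pool 1.

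The median log2 fold change of 4 weeks against 1 week off, 0.49 with all libraries, was -0.000481 without 1 week off pool 1 and 1.30 without pool 3. With no scaling factor the median over all genes moved to between -0.30 and 0.11, and the listed genes' median stayed negative for DEX against control (-1.33) and positive for 4 weeks off against DEX (2.84). With a replicate block 3 genes were called over the 4 groups (0.344% of all genes), and the other counts stayed within 1.5 times. Pools with the same number varied together in part: the correlation of deviations ran from -0.294 to 0.397 over 18 pairs, with 7 over 0.1, and 8 of 12 libraries correlated best with their own number, a hint from the data and not the design. All 3 pairs of control with 1 week off were over 0.1 (0.202, 0.136 and 0.397), where the replicate block called 0 genes, as the fit without it did. In no other comparison were all 3 pairs over 0.1, so the numbers were not used as pairs. The cause of these differences was not tested. Genes with 5 or fewer reads in DEX are limited by depth, and their fitted fold changes depend on the pseudocount.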
